A study of Arabidopsis thaliana with 21 samples.

Results

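CA1 (AT3G01500), CA2 (AT5G14740) and CA4 (AT1G70410) are carbonic anhydrase genes of Arabidopsis, and their crosslink (XL) sites were taken as all sites that the deposited lists assign to any gene model of the 3 genes, introns included. These 3 of 4968 genes with a listed site held 2850 of 315156 entries in the lists of 21 iCLIP libraries, 1471 in CA1, 1315 in CA2 and 64 in CA4, at 753 of 145822 distinct positions. In iCLIP, UV light bonds a protein to the RNA it touches in the plant, the protein is precipitated, and the reverse transcriptase stops next to the bonded base, so that the start of each read marks an XL site. A crosslink is here a unique read at such a site, and only sites that passed the authors' FDR of 0.05 in a library are listed, so that a position without an entry can still have had reads. The precipitated protein was AtGRP7, a glycine-rich RNA-binding protein under control of the circadian clock.

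Plants carried AtGRP7::AtGRP7-GFP in the background grp7-1, which lacks functional AtGRP7 (AtGRP7-GFP), AtGRP7::GFP in Col-0 wild type (GFP-only) or AtGRP7::AtGRP7 R49Q-GFP in grp7-1 (R49Q), whose RNA recognition motif has a changed arginine and a reduced RNA-binding activity. All 3 transgenes were thus driven by the AtGRP7 promoter, and both AtGRP7 fusions were in plants that lack the native protein. Plants had grown for 16 days in 12 h of light and 12 h of dark at 20 °C, and were 18 days old per the labels when they were irradiated with 254 nm UV light at 500 mJ/cm2 after 36 h (LL36, subjective dusk) or 24 h (LL24, subjective dawn) of continuous light. Aerial parts were precipitated with GFP Trap beads. LL36 was covered by 5 AtGRP7-GFP, 5 GFP-only and 2 R49Q libraries and LL24 by 3 libraries per genotype, each made from several pooled plants.

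Carbonic anhydrases convert CO2 and water into bicarbonate and back. The beta family supplies the leaf: CA1 is the abundant enzyme of the chloroplast stroma and also the salicylic acid-binding protein SABP3, CA2 is its cytosolic relative, and CA4 sits at the plasma membrane. In guard cells CA1 and CA4 act together in the closure of stomata at high CO2.

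The sites of each gene lay in a few dense groups (positions at most 10 nt apart were joined), and 25 nt around the strongest position of the main groups are shown, because the results below turn on these stretches. They are given 5′ to 3′ in the direction of the transcript, from the TAIR10.1 assembly, whose nuclear coordinates are those of TAIR10, with T for U. Capitals mark reproducible sites, those listed in at least 4 of 5 AtGRP7-GFP libraries at LL36 or in at least 2 of 3 at LL24.
CA1, 5′ UTR, chr3:197936-197960, minus strand: TATATAGTagcTTCCATAAGAGTCT
CA1, exon 1, chr3:197836-197860, minus strand: ctctctccggctTCTtTCTCAcTTC
CA1, exon 9, chr3:195211-195235, minus strand: gTcaagggtgcTTTTgagcTTTggg
CA1, last intron or alternative 3′ UTR, chr3:195057-195081, minus strand: TTGTAATGTGCCTTTGACTGTGATG
CA2, exon 2, chr5:4759122-4759146, plus strand: tcatcGcCTGTCTCTCCTCTTCCTC
CA2, coding end of exon 10, chr5:4762342-4762366, plus strand: gggagcTCcagTTTGgaaTTTCCCc
CA2, 3′ UTR, chr5:4762517-4762541, plus strand: TTGcGATGAgcTTCTTTTCCTTCAT
CA4, leader, chr1:26536666-26536690, minus strand: cattaactgattTcacattcTtcga
All 25 bases of the CA1 stretch in the last intron and 22 of 25 in the CA2 3′ UTR were reproducible, against 8 of 25 in CA1 exon 9. In CA4 only 2 bases of the leader stretch reached this mark.

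The listed crosslinks summed to 109755 to 402170 per AtGRP7-GFP library at LL36 and to 27291 to 98235 at LL24, but only to 33 to 989 per GFP-only library and to 34 to 7802 per R49Q library. The control libraries are thus shallow, and a gene without a site there may lie under their detection limit. In all 8 AtGRP7-GFP libraries 4 of 4 markers of green tissue had a site, and 0 or 1 of 3 root markers did. AtGRP7 itself had 214 to 355 sites per AtGRP7-GFP library at LL36 and 0, 3 and 0 at LL24. The study calls its replicates biological, but the labels do not say how they were raised, and the p-values below measure the spread between these libraries.

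CA1 and CA2 were among the most heavily crosslinked transcripts of AtGRP7-GFP plants at both time points, whereas CA4 was close to the limit of detection. At LL36 the 5 AtGRP7-GFP libraries, in the order of their replicate numbers, had 208, 256, 111, 152 and 197 sites in CA1. They had 220, 236, 170, 153 and 192 sites in CA2. In CA4 they had 15, 18, 7, 9 and 12 sites. CA4 was the lowest in all 5 libraries, while CA1 and CA2 changed places from library to library. At LL24 the 3 libraries had 167, 204 and 103 sites in CA1 and 108, 165 and 56 in CA2. CA4 had 3 sites in the deepest LL24 library, replicate 2, and 0 in the other 2.

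In crosslinks, CA1 held 1221, 1562, 437, 532 and 893 at LL36, a share of 0.402% ± 0.0313 of all listed crosslinks (SD, n = 5). CA2 held 1350, 1647, 549, 550 and 923, a share of 0.440% ± 0.0405 (SD, n = 5). The shares varied little, from 0.359% to 0.435% for CA1 and from 0.397% to 0.50% for CA2, although the depth of the libraries differed several-fold, and CA2 was above CA1 in every LL36 library. Ranked by crosslinks, CA1 was 50th to 56th and CA2 46th to 51st among the 1347 to 3123 genes of an LL36 library. CA4 held 22, 31, 7, 10 and 23 crosslinks, a share of 0.00796% ± 0.0019 (SD, n = 5), and ranked 846th to 1201st.

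Per kilobase of exon in the gene models named in the lists (1758, 1603 and 1542 nt), the share of listed crosslinks at LL36 was 0.229% ± 0.0178 for CA1, 0.275% ± 0.0252 for CA2 and 0.00516% ± 0.00123 for CA4 (SD, n = 5). All listed crosslinks of a gene were counted, also those in introns of the named model. Such introns held 49.9% of the CA1, 0.497% of the CA2 and 91.6% of the CA4 crosslinks at LL36. The ranges of CA1 (0.204% to 0.248%) and CA2 (0.247% to 0.312%) overlapped at their ends, and the CA4 range ended far below both. At LL24 the order of the first pair was turned, with 0.651% ± 0.0596 per kilobase for CA1 and 0.429% ± 0.0555 for CA2 (SD, n = 3), and their ranges of 0.583% to 0.693% and 0.366% to 0.470% were separate. This separation was found with the named lengths only. Model AT3G01500.3 of CA1, in which the last intron is exonic, has 2251 nt of exon, and values for it were not computed. These levels depend on how much of each transcript was present in the plants. RNA abundance was not analysed here, and more transcript and more AtGRP7 per transcript cannot be told apart.

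**Figure D1:**
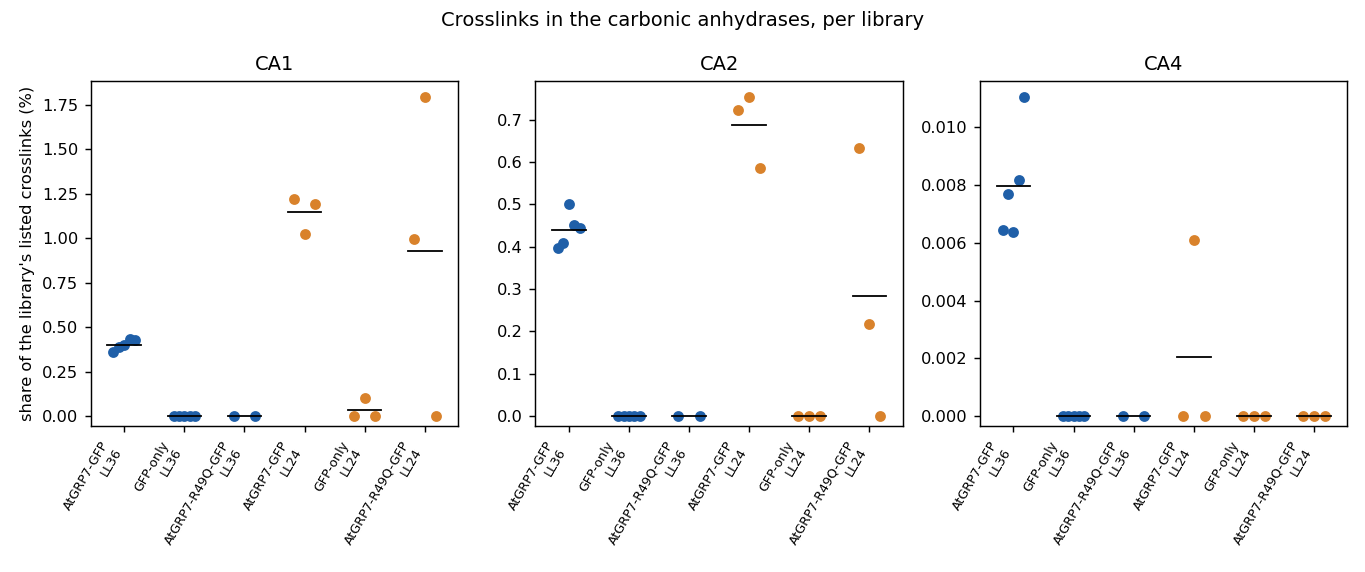
Share of each library's listed crosslinks that fell in CA1, CA2 and CA4 (%, linear axes with a different scale per gene). Each point is a library, horizontal lines are group means, blue is LL36 and orange LL24, and points at 0 are libraries with no listed site; the AtGRP7-GFP libraries of LL24 lie above those of LL36 for CA1 and CA2.

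The reproducible sites give the same order. CA1 had 114 reproducible sites at LL36, 38th among the 827 genes with any, and 141 at LL24, 9th among 471 genes. CA2 had 145 at LL36 (21st) and 100 at LL24 (24th). The median gene with a reproducible site had 7 at either time point, and the highest had 300 at LL36 and 306 at LL24. CA4 had 3 at LL36 (576th) and 0 at LL24. In CA1 37 positions and in CA2 28 positions were listed in all 8 AtGRP7-GFP libraries.

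The 3 genes had no listed site in the 5 GFP-only and 2 R49Q libraries at LL36. On log2(sites + 1), AtGRP7-GFP exceeded GFP-only at LL36 by 7.48 in CA1, 7.59 in CA2 and 3.65 in CA4. The 2 groups of 5 libraries did not overlap for any of the 3 genes, and 16.5% of the 4497 genes tested were called in this direction. The two-sided exact permutation test over libraries gave p = 0.00794 for each of the 3 genes, the smallest that 5 against 5 allows (adjusted p = 0.0482 over all genes). Any gene listed in all 5 AtGRP7-GFP libraries and in no GFP-only library receives this p. The 3 genes entered the test through AtGRP7-GFP libraries alone, and these were far deeper. The test therefore cannot tell genotype from depth. Summed crosslinks in place of sites gave the same adjusted value. Scaled to 1000 listed sites per library, it was 0.0517 for each of the 3 genes in the same permutation test, with differences of 2.25, 2.34 and 0.315 on the log2 scale, and it exceeded 0.05 without any 1 of the 10 libraries.

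Against the R49Q libraries of LL36 the differences were the same, since those libraries also had 0 sites in the 3 genes, and the exact permutation p was 0.0952, the smallest that 5 against 2 allows (adjusted p = 0.571). In this comparison 16.7% of 4454 genes had separate groups. The 5 GFP-only libraries held 1216 listed crosslinks together, so that 0 allows a share of up to 0.247% (3 counts), and the 2 R49Q libraries held 1210, which allows 0.248%. Against these limits over the pooled controls, the mean share in AtGRP7-GFP plants was at least 1.63-fold higher than in GFP-only and at least 1.62-fold higher than in R49Q plants for CA1. For CA2 it was at least 1.78-fold and at least 1.77-fold higher. The CA4 share in AtGRP7-GFP plants was itself far below both limits, so that a difference was not detectable at this depth. Limits and intervals cover counting error only.

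At LL24 the controls were not empty, and CA1 had more sites in them than CA2. The 3 GFP-only libraries had 0, 1 and 0 sites in CA1 and none in CA2 or CA4. The 3 R49Q libraries had 9, 63 and 0 sites in CA1, with 11, 140 and 0 crosslinks. In CA2 they had 3, 12 and 0 sites, with 7, 17 and 0 crosslinks, and in CA4 none. R49Q replicate 2, the deepest control library with 7802 listed crosslinks, thus supplied most of these sites, and replicate 3, with none, had only 154 listed crosslinks. Numbers of sites in AtGRP7-GFP libraries lay above those of both controls without overlap for CA1 and CA2. That held for 20.3% of 1512 genes against GFP-only and for 16.5% of 1732 genes against R49Q. The differences on log2(sites + 1) were 6.92 for CA1 and 6.66 for CA2 against GFP-only, and 4.15 and 4.76 against R49Q, each with an exact permutation p of 0.1, the smallest that 3 against 3 allows (adjusted p = 0.493 and 0.608). The value of CA1 against R49Q moved to 5.60 without R49Q replicate 2 and to 2.60 without R49Q replicate 3. Scaled to 1000 listed sites per library, the differences from R49Q were 0.559 for CA1 (exact permutation p = 1) and 1.22 for CA2 (exact permutation p = 0.3). For CA4 the difference of 0.67 against either control gave an exact permutation p of 1.

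As a share of listed crosslinks, the 2 R49Q libraries with sites lay near or above the AtGRP7-GFP libraries of LL24 for CA1 and near or below them for CA2, which was not tested. CA1 took 0.996% and 1.79% of the crosslinks of R49Q replicates 1 and 2, beside 1.22%, 1.03% and 1.19% in the AtGRP7-GFP libraries, and ranked 6th of 444 genes in R49Q replicate 2. CA2 took 0.634% and 0.218% in the same R49Q libraries, beside 0.723%, 0.753% and 0.586%. Pooled over the 3 R49Q libraries, CA1 held 151 of 9060 listed crosslinks, 1.67% with an exact 95% interval of 1.41% to 1.95%, and CA2 held 24, 0.265% with 0.170% to 0.394%. Both pooled values rest mainly on replicate 2. In the pooled GFP-only libraries CA1 held 1 of 1578 crosslinks, 0.0634% with an exact 95% interval of 0.0016% to 0.353%. CA2 held none, which allows up to 0.190% by 3 counts and up to 0.233% by the exact 95% interval. Against the limit of 3 counts its mean share of listed crosslinks in AtGRP7-GFP plants was 3.62-fold higher, and less against the exact limit.

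The sites in R49Q plants lay mostly in the site groups of AtGRP7-GFP. In CA1, 61 of the 63 positions of R49Q replicate 2 were also listed in an AtGRP7-GFP library, 57 of them at LL24. Of its 140 crosslinks 79, or 56.4%, fell in the group in the last intron, and all 9 positions of R49Q replicate 1 did so too. The single CA1 site of GFP-only plants, at chr3:195066, was in that group as well and lies within the 25 nt shown for it. In CA2 all 12 positions of R49Q replicate 2 were also positions of AtGRP7-GFP, 9 of them in the 3′ UTR. The 3 CA2 positions of R49Q replicate 1 were positions of AtGRP7-GFP too, but all 3 lay in exon 4, at chr5:4760820-4760846, and none in the 3′ UTR. The 8 AtGRP7-GFP libraries together listed 84 of the 86 nt of the CA1 group in the last intron. In the CA2 3′ UTR group they listed all 93 nt. Any site within these 2 stretches thus coincides almost always, and the overlap there describes the stretch and not single bases.

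Between the time points, CA1 and CA2 both took a smaller part of the crosslinks at LL36 than at LL24. The share of CA1 was 0.359% to 0.435% in the 5 LL36 libraries and 1.03% to 1.22% in the 3 LL24 libraries. That of CA2 was 0.397% to 0.50% at LL36 and 0.586% to 0.753% at LL24. The groups did not overlap for either gene, and how many of all genes separated in this way was not counted. CA1 was 13th to 15th and CA2 28th to 41st of the 507 to 1142 genes of an LL24 library. The LL24 lists are shallower than those of LL36, which hold 1347 to 3123 genes. The part of depth in these shares and ranks was not tested. In edgeR's quasi-likelihood test on the crosslinks per gene, the log2 difference of LL36 over LL24 was -1.60 for CA1 (SE 0.135, adjusted p = 2.67e-05) and -0.74 for CA2 (SE 0.168, adjusted p = 0.00977). Of 1024 genes tested 6.45% were called lower at LL36 and 16.8% higher.

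The normalised CPM behind this test were 4096 ± 425 at LL36 and 12405 ± 849 at LL24 for CA1, and 4487 ± 548 and 7498 ± 1336 for CA2 (SD, n = 5 and 3). Over all genes tested the median log2 difference was 1.02 toward LL36, and both genes lay on the other side of 0. Weak sites are missed first in the shallower LL24 libraries, and the part of depth in this contrast was not tested. CA1 had the 46th and CA2 the 116th most negative value of 1024. This median moved between 0.53 and 2.76 with the scaling and filter used and to 4.30 without replicate 2 of LL24, and both genes stayed below 0 in every setting run. The CA2 call was lost in edgeR without replicate 1 of LL24 (-0.59, adjusted p = 0.0890), without replicate 2 of LL24 (-0.45, adjusted p = 0.10) and without the filter on low counts (-0.58, adjusted p = 0.112). CA4 had too few crosslinks for the test.

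The balance between the first 2 genes changed as well. Crosslinks in CA1 were 0.904, 0.948, 0.796, 0.967 and 0.967 times those in CA2 in the LL36 libraries, and 1.69, 1.36 and 2.03 times in the LL24 libraries. CA2 was thus ahead in all 5 libraries at LL36 and CA1 in all 3 at LL24. The log2 ratio fell by 0.87 from LL24 to LL36 (exact permutation test, two-sided, p = 0.0357, the smallest that 5 against 3 allows). Within LL24 the ratio was lowest in the deepest library, replicate 2, and highest in the shallowest, replicate 3, and the part of depth in the difference was not tested. The comparison was added after the values were seen.

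Over the 8 AtGRP7-GFP libraries, the genes whose CPM were most like those of CA1, among 281 genes with a site in all 8, were LHCB2.1 (r = 0.991) and LHCB2.2 (r = 0.989), antenna proteins of photosystem II. For CA2 they were FBA2, a chloroplast fructose-bisphosphate aldolase (r = 0.968), and ECS1 (r = 0.961). The points of these correlations are libraries from 2 time points, which also differ in depth. Their log2 differences of LL36 over LL24 were -3.54 for LHCB2.1, -2.46 for LHCB2.2, -1.54 for FBA2 and -1.41 for ECS1. CA4 had no listed site in 2 of the libraries, and its likeness was not computed.

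The sites of CA1 fell into 16 groups, of which 7 had reproducible sites, the same 7 at both time points. The authors assigned all sites to model AT3G01500.2, which spans chr3:194426-198160 on the minus strand with 10 exons. Its densest group lies in the last intron of that model, intron 9, at chr3:195012-195097. In models AT3G01500.3 and AT3G01500.4 this intron is retained, the reading frame ends within its first bases, and the same 86 nt are 3′ UTR, 76 to 161 nt downstream of the stop codon. Which of the models the crosslinked RNA followed cannot be read from single positions. The group held 53.5%, 49.7%, 63.8%, 36.8% and 43.3% of the CA1 crosslinks in the LL36 libraries and 46.6%, 48.5% and 65.5% in the LL24 libraries. The ranges overlapped, with means of 49.4% ± 10.2 (SD, n = 5) and 53.5% ± 10.4 (SD, n = 3), and the exact permutation test gave p = 0.643.

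At its strongest base, chr3:195069 in the 25 nt shown above, the LL36 libraries had 99, 104, 50, 24 and 28 crosslinks and the LL24 libraries 30, 62 and 8. Of the 84 positions in the group, 46 were reproducible at LL36, 58 at LL24, and 24 were listed in all 8 libraries. The 3′ UTR of the named model, by contrast, was nearly free of sites, with 1.10% ± 1.46 of CA1 crosslinks at LL36 (SD, n = 5; 0.486% without replicate 4) and 0.331% ± 0.573 at LL24 (SD, n = 3).

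The next groups of CA1 were in its 5′ UTR and its exons. The 5′ UTR group, chr3:197914-197974, lay 41 to 101 nt upstream of the start codon and held 15.3% ± 6.00 of the CA1 crosslinks at LL36 and 17.2% ± 2.67 at LL24. By library the share was 9.91%, 11.7%, 11.2%, 20.5% and 23.0% at LL36 and 18.0%, 19.3% and 14.2% at LL24, which overlapped. The group near the start of the coding region in exon 1 was the least even, with 0, 23, 7, 43 and 68 crosslinks at LL36 and 57, 121 and 0 at LL24. It had 3 reproducible sites at LL36 and 22 at LL24. The group in exon 9, chr3:195178-195269, covered the 3′ part of that exon and held 15.9% ± 2.85 at LL36 and 7.89% ± 7.15 at LL24 (exact permutation p = 0.0714). Replicate 3 of LL24, the shallowest of the 8 libraries, listed none of its sites. Exon 3 held 5.27% ± 3.28 and 4.66% ± 2.91, and exon 5 held 7.08% ± 1.47 and 6.67% ± 4.08.

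**Figure D2:**
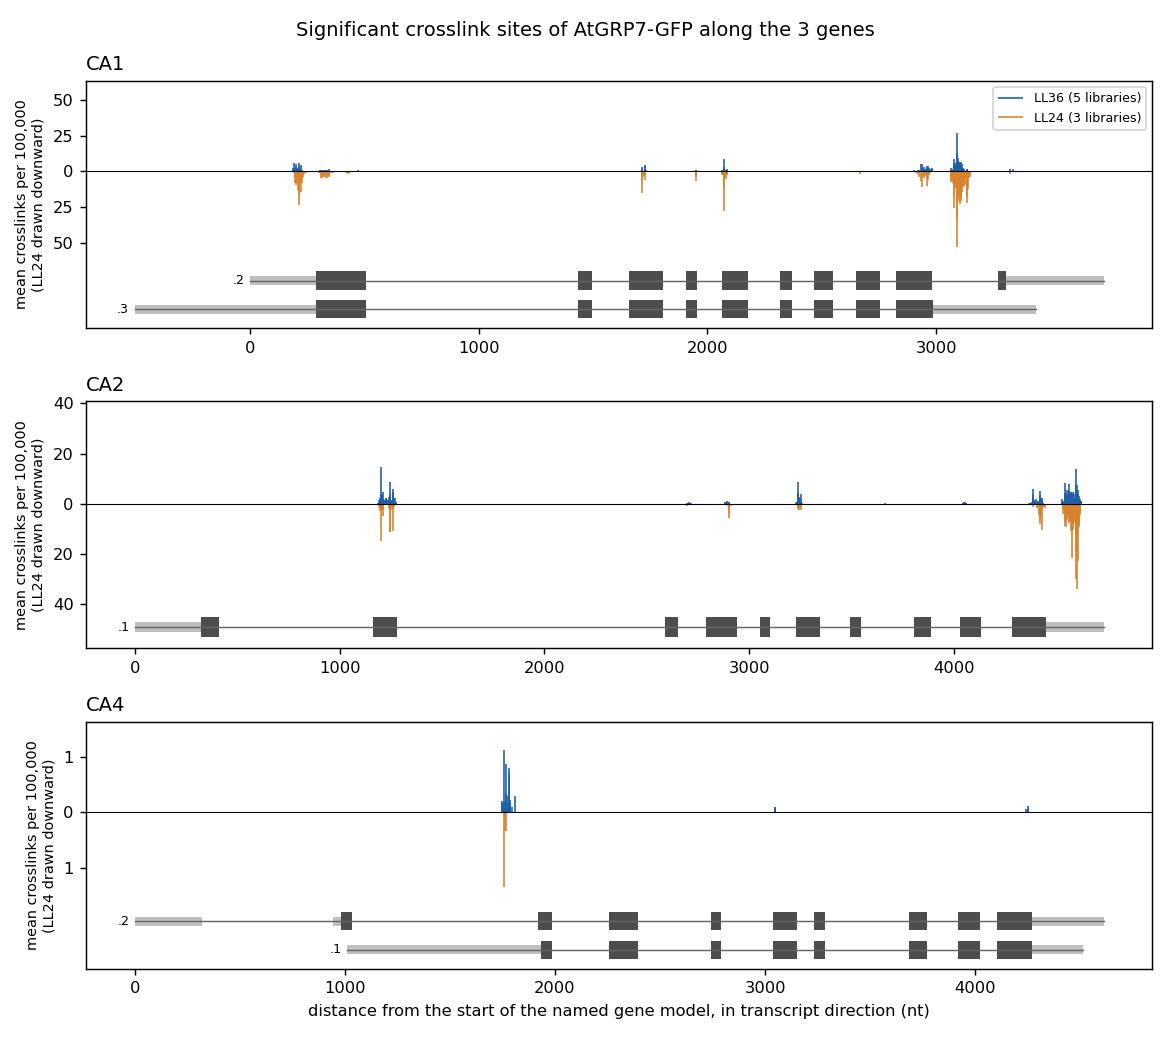
Mean crosslinks per 100000 listed crosslinks at each position of CA1, CA2 and CA4 in AtGRP7-GFP libraries, against the distance from the start of the named gene model in nt (linear axes, a different vertical scale per gene). LL36 (5 libraries, blue) points up and LL24 (3 libraries, orange) down, dark boxes are coding exons, grey boxes UTRs and lines introns of the numbered models; the highest peaks of CA1 lie in the last intron of model 2, those of CA2 in the 3′ UTR and those of CA4 in an intron of model 2 that is 5′ UTR in model 1.

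CA2 had 8 groups, all assigned to model AT5G14740.1, which spans chr5:4757934-4762666 on the plus strand with 10 exons. Its densest group was in the 3′ UTR at chr5:4762461-4762553, 93 nt that begin 79 nt and end 171 nt downstream of the stop codon, about where the CA1 group begins and ends. Aligned with the 86 nt of CA1, 51 of 96 columns were identical (53.1%). All 93 positions were listed in at least 1 AtGRP7-GFP library, 67 were reproducible at LL36 and 64 at LL24, and 27 were listed in all 8 libraries. At its strongest base, chr5:4762529, the LL36 libraries had 35, 39, 13, 21 and 41 crosslinks and the LL24 libraries 7, 41 and 9.

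The 3′ UTR took a smaller part of the CA2 crosslinks at LL36 than at LL24. The share was 47.9%, 47.7%, 48.3%, 52.7% and 53.1% in the LL36 libraries and 73.8%, 67.2% and 70.0% in the LL24 libraries. All sites of this UTR belonged to the group just described, and every LL24 library was above every LL36 library. The mean changed from 70.3% ± 3.33 (SD, n = 3) to 49.9% ± 2.74 (SD, n = 5), a difference of -20.4 percentage points, with an exact permutation p of 0.0357, the smallest that 5 against 3 allows. Adjusted over the 278 genes tested p was 0.261, and no gene passed in this design. In 11.9% of these genes the LL36 share was lower without overlap and in 1.80% it was higher, and the median difference over genes was 0. The LL24 libraries were the shallower ones, with 332, 740 and 160 crosslinks in CA2 against 549 to 1647 at LL36, and the part of depth in this difference was not tested. For CA1 the corresponding 3′ UTR share, with the alternative 3′ UTR counted, was 50.6% at LL36 and 53.9% at LL24 (exact permutation p = 0.643).

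The coding groups of CA2 made up the rest. A group in exon 2, chr5:4759122-4759211, held 27.9%, 26.0%, 30.8%, 23.6% and 30.6% of the CA2 crosslinks at LL36 and 21.1%, 9.19% and 14.4% at LL24. This exon is coding in model AT5G14740.1 and 5′ UTR in models 2 and 6 to 9, whose start codon lies farther downstream. A group at the start of exon 6, chr5:4761164-4761190, held 9.26%, 8.20%, 7.10%, 8.73% and 7.80% at LL36 and 2.71%, 4.73% and 0% at LL24. Both groups were higher at LL36 without overlap, by 12.9 and 5.74 percentage points (exact permutation p = 0.0357 each, adjusted p = 0.267). Over the 612 site groups tested in 277 genes, 4.90% were higher at LL36 without overlap and 8.50% lower. The shares of 1 gene add up, so that a rise of these groups and a fall of the 3′ UTR are not separate observations. The group at the coding end of exon 10, chr5:4762302-4762376, held 11.2% ± 3.72 and 9.71% ± 6.33 and overlapped between the time points (exact permutation p = 0.679).

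**Figure D3:**
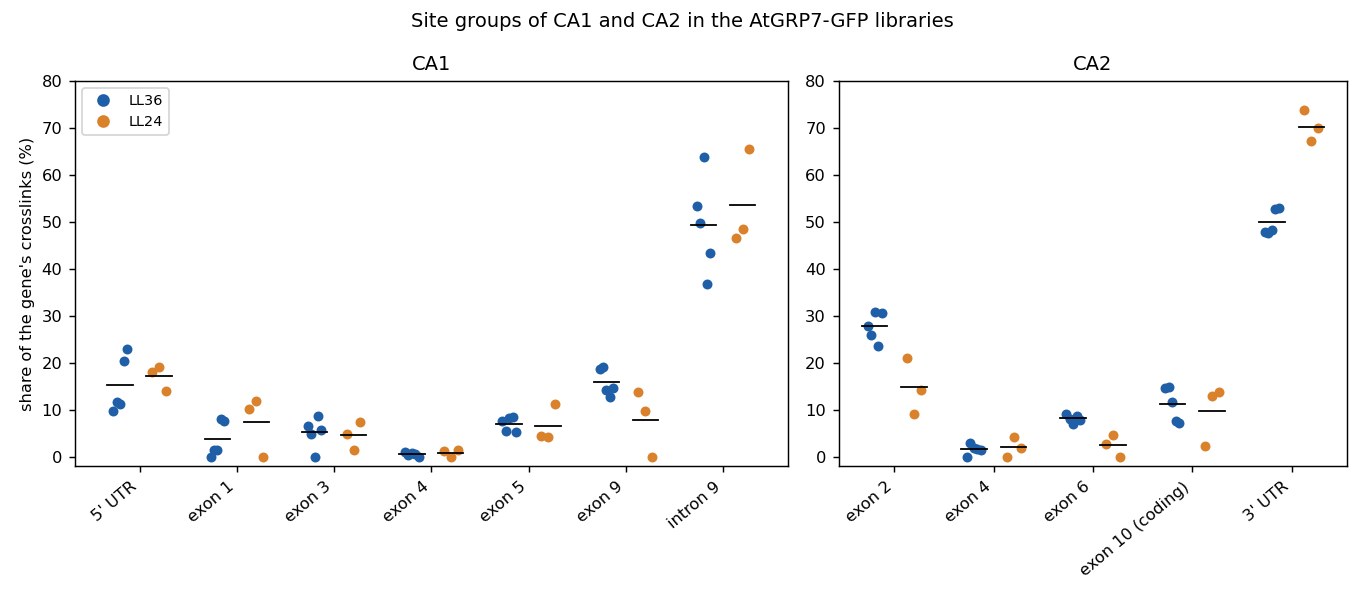
Share of the crosslinks of CA1 and CA2 in each of their groups with reproducible sites, in order along the transcript (%, linear axis). Each point is an AtGRP7-GFP library, lines are means, blue is LL36 (n = 5) and orange LL24 (n = 3); the CA2 3′ UTR is at 47.7% to 53.1% at LL36 and at 67.2% to 73.8% at LL24, and the CA1 groups overlap.

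The sites of CA4 were assigned to model AT1G70410.2, chr1:26533824-26538437 on the minus strand with 10 exons, and fell into 4 groups. The group at chr1:26536640-26536691 held 17, 25, 7, 10 and 20 crosslinks at LL36 and 0, 6 and 0 at LL24. It is named intronic for model AT1G70410.2, but it lies in the 5′ UTR of models AT1G70410.1 and AT1G70410.3, where a long leader replaces the first exons. In AT1G70410.1 it lies 135 to 186 nt upstream of the start codon, and in AT1G70410.3 an intron separates it from that codon. All 3 reproducible CA4 sites were there. Together with a neighbouring position in replicate 5, this leader held 91.6% ± 11.6 of the CA4 crosslinks at LL36 (SD, n = 5). The strongest base, chr1:26536678, had 2, 6, 1, 2 and 2 crosslinks at LL36 and 0, 4 and 0 at LL24. The other sites were 4 positions in exon 6 in replicate 2 and 4 in exon 10 in replicate 1.

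The position of sites could be compared between the genes, because most coding exons of CA1 have a CA2 exon of equal length and like sequence. CA4 matches less closely, with an identity to CA1 of 58.8% to 76.3% by exon. The exon of 117 nt that is exon 5 of CA1 and exon 6 of CA2 and CA4 had sites near its 5′ end in all 3 genes, and its first 30 nt are shown to align them. Capitals again mark reproducible sites, and in CA4 the 4 sites listed in LL36 replicate 2.
CA1, exon 5, chr3:196069-196098, minus strand: tacAtgGTgTTTGCTTgtTCagAcTcacgt
CA2, exon 6, chr5:4761163-4761192, plus strand: tacatggTGTTTGcTTGTTcGgacTCacga
CA4, exon 6, chr1:26535372-26535401, minus strand: tttctggtgTTTGcttgctctgattctcga
The TTTG at bases 10 to 13 of the exon carried sites in each gene. The strongest position was base 11 in both CA1 and CA2. There CA1 had 25, 26, 12, 12 and 16 crosslinks at LL36 and 6, 11 and 16 at LL24. CA2 had 30, 40, 8, 13 and 12 at LL36 and 0, 6 and 0 at LL24. Thus CA1 was listed at this base in all 8 libraries, and CA2 in all 5 of LL36 and in 1 of LL24.

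Over the whole exon CA1 and CA2 were 88.9% identical. Of the 30 CA1 and 27 CA2 positions with a site in any AtGRP7-GFP library, 25 fell on the same column, 83.3% of those of CA1 and 92.6% of those of CA2, and 24 of the 25 had the same base. Of 14 reproducible positions in each gene 9 were shared (64.3% of each). The listed positions formed nearly unbroken runs, from base 1 to 27 in CA1, with a few farther downstream, and from base 2 to 28 in CA2. Shared columns thus follow largely from the overlap of 2 runs, and they were not set against an expected number. CA4 was 76.3% identical to CA1, and its 4 positions were all on columns with a CA1 site. Since only uniquely mapped reads were kept, it matters that the 30 nt downstream of all 170 reproducible CA1, 159 CA2 and 3 CA4 positions occur once in the genome, so that a full-length match separates the genes. Shorter reads and reads with mismatches were not examined.

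**Figure D4:**
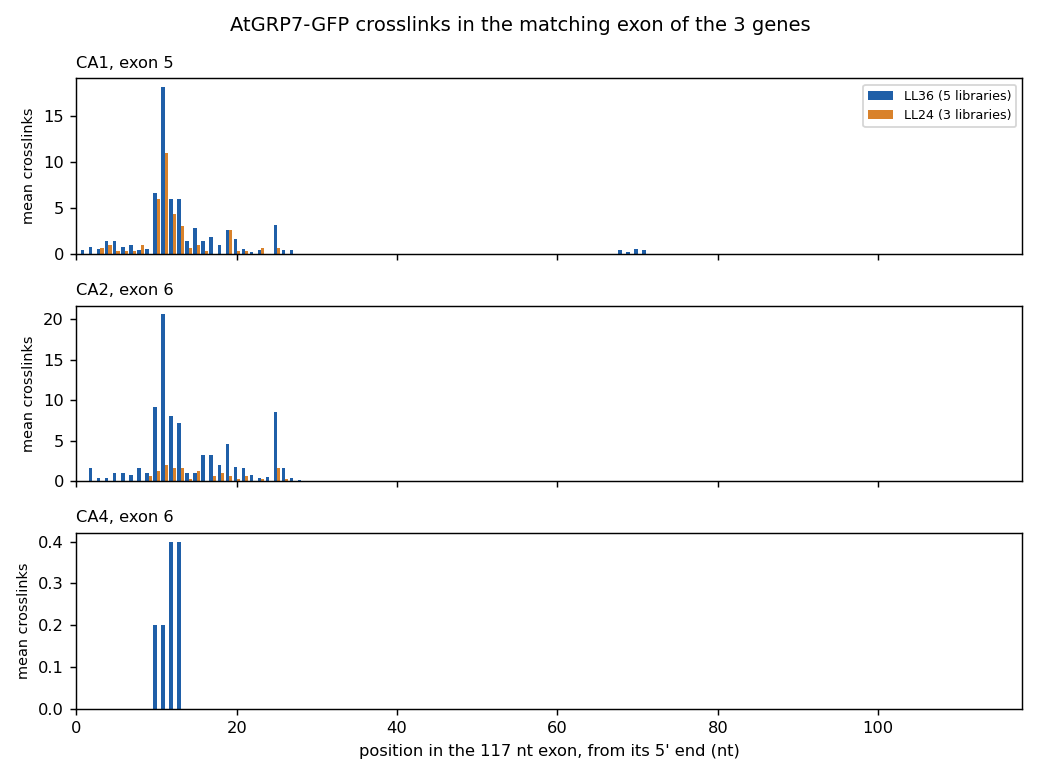
Mean crosslinks per library at each base of the 117 nt exon that is exon 5 of CA1 and exon 6 of CA2 and CA4, counted from its 5′ end (linear axes, a different vertical scale per gene). Bars are means over 5 AtGRP7-GFP libraries at LL36 (blue) and 3 at LL24 (orange); CA1 and CA2 are both highest at base 11, and the 4 CA4 positions are bases 10 to 13.

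The last coding stretch that the genes share, in exon 9 of CA1 and exon 10 of CA2 and CA4, gave a like but looser match. CA1 and CA2 were 81.8% identical there, and 52 columns were listed in both, 67.5% of the 77 positions of CA1 and 86.7% of the 60 of CA2. Of the reproducible positions 10 were shared, 43.5% of the 23 of CA1 and 66.7% of the 15 of CA2. These overlaps were not set against an expected number either. Other matching exons differed. Exon 3 of CA1 had 31 positions at bases 58 to 88, while the matching exon 4 of CA2 had 25 at bases 80 to 124, and 3 columns were common at an identity of 77.3%. Exon 4 of CA1 had 3 positions and the matching exon 5 of CA2 had 0, at an identity of 85.7%. Exon 8 of CA1 had 1 and the matching exon 9 of CA2 had 11, with 0 columns in common at 86.8%. Exons 6 and 7 of CA1 and exons 7 and 8 of CA2 and CA4 had no site in any AtGRP7-GFP library.

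Reproducible sites lay on U more often than the exon bases of the named models are U, but less so beside the bases of their own groups. At LL36 U was at the site for 50.9% of 114 positions in CA1 and 51.7% of 145 in CA2, beside 27.5% and 31.1% of all exon bases and 36.8% and 38.6% of all intron bases of the named models. At LL24 it was 51.1% in CA1 and 60% in CA2. All 3 CA4 positions were U. Within 10 nt on either side, U and C together made up 58.9% of bases around the CA1 sites, 67.7% around those of CA2 and 60.3% around those of CA4, beside 51.4%, 52.5% and 50.4% of exon bases.

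The groups differed in base composition. Around the sites of CA2 exon 2, U and C reached 74.8%, and 35.8% of these sites were C, as in the run CTGTCTCTCCTCTTCCTC shown above. In the CA2 3′ UTR 53.7% of sites were U and 11.9% C. In the CA1 5′ UTR, A was as frequent at the site as U, 40.9% each. Neighbouring sites share their surroundings and the test by which they were listed, so that these shares describe the groups and were not tested.

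Of the 16 other carbonic anhydrase genes of the alpha, beta and gamma families that were looked up, 3 had a site in any library (18.8%) and 13 had none, beside 18.0% of the 27444 nuclear protein-coding genes with a site. Among these 16 genes the share is thus near that of all genes. CA1, CA2 and CA4, which have sites, are not counted in it. CA6, a beta carbonic anhydrase of mitochondria, had 5 sites with 12 crosslinks in LL36 replicate 2. GAMMA CA1, a subunit of mitochondrial complex I, had 1, 7 and 6 sites in LL36 replicates 2, 3 and 5, at different positions each time. GAMMA CAL1, a relative in the same complex, had 3 sites with 6 crosslinks in LL24 replicate 1. None of these sites was listed in more than 1 library, and none was in a control.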

How the data were processed

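The deposited counts are the unique reads at each listed XL site of 21 libraries. The authors trimmed reads with cutadapt 1.9.1, removed PCR duplicates by random barcodes, mapped with STAR 2.5.2a to TAIR10 with the atRTD annotation, kept uniquely mapped reads and listed the positions that passed an FDR of 0.05 against random placement within the same transcript region. These counts are whole numbers without scaling for depth. Weak sites are missed first in shallow libraries.

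Sites were taken by gene name, placed in the TAIR10.1 gene models and joined to groups at a distance of at most 10 nt. Intron numbers in the lists count from the low coordinate, so that intron 1 of CA1 there is the last intron of the transcript. Numbers of sites per library and shares within a gene were compared with two-sided exact permutation tests with the smaller tail doubled, and crosslinks per gene with edgeR 4.0.16 (TMM, filterByExpr), adjusted by Benjamini-Hochberg over all genes tested. The 3′ UTR share over all models, the shares of site groups, the R49Q shares at LL24 and the ratio of CA1 to CA2 were added after the data were seen. Python 3.11.15, scipy 1.17.1, R 4.3.3 and DESeq2 1.42.0 were used, and the tests were checked on simulated counts. Members, gene lists and tests were chosen with earlier results of these data known. Besides the members, the text names the carbonic anhydrases with a site, the 2 genes most like each member, and AtGRP7.

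Replicate numbers did not pair AtGRP7-GFP libraries between LL36 and LL24, where deviations of same-numbered libraries correlated with r = -0.0806, 0.190 and 0.0882. At LL24 same-numbered AtGRP7-GFP and R49Q libraries correlated with r = 0.100, 0.209 and 0.107 over 156 genes, which counts as pairing here. With these pairs as a block, the exact permutation p of CA1 and CA2 was 0.25, the smallest that 3 pairs allow, and no call changed.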

Additional observations from a re-analysis of the deposited data

Results flagged for a closer look

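In 2 of the 30 sets of 5 LL36 values of CA1, CA2 and CA4 that were examined, 1 library lay far from the other 4 by Dixon's criterion, and chance alone gives about 1 in 20 sets. Both times it was AtGRP7-GFP replicate 4. It held 3.57% of its CA1 crosslinks in the 3′ UTR of the named model, all of them in a group at chr3:194822-194837 with 19 crosslinks, beside 12 and 14 crosslinks in replicates 1 and 2 and none in replicates 3 and 5. It held 2.0% of its CA2 crosslinks in introns, from 11 crosslinks in intron 3, where replicate 2 had 5. Neither place had a reproducible site. Without replicate 4 the mean CA1 share of this 3′ UTR at LL36 was 0.486% in place of 1.10%.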

How the results depend on the processing

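No called value changed its direction under any alternative run. Against GFP-only at LL36, where 741 genes were called, 0 were called with sites scaled to 1000 per library (1151 at an unadjusted exact permutation p under 0.05), 0 with the replicate block (0 unadjusted, smallest p 0.0625) and 0 to 0 without a replicate (743 to 978 unadjusted). Scaling gave log2 differences of 2.25 for CA1, 2.34 for CA2 and 0.315 for CA4, and the replicate block 7.48, 7.59 and 3.65. Without a replicate they ranged from 7.35 to 7.65, 7.52 to 7.67 and 3.51 to 3.82 (exact permutation, adjusted p 0.0712 to 0.0963). Sites with at least 2 crosslinks gave 1.92 for CA4 (exact permutation, adjusted p = 0.176). Between time points, 172 genes were higher at LL36, 324 with DESeq2 and 49 with the replicate block, and 66 were lower, 106 with upper-quartile scaling. The log2 difference of CA2 was -0.58 with no filter and -0.75 to -0.45 without a replicate. That of the CA2 3′ UTR share was -22.4 points with the replicate block (exact permutation, p = 0.25) and -22.0 to -18.7 without a replicate (p 0.0571 to 0.0952, the smallest possible there). The counts of reproducible sites followed the rule applied. If all libraries were required, CA1 and CA2 kept 67 and 90 at LL36 and 65 and 35 at LL24. With fewer libraries required CA4 had 5 at LL36, and CA1, CA2 and CA4 had 268, 194 and 3 at LL24. A tolerance of 1 nt gave 182 for CA1 and 10 for CA4 at LL36. Merging left 7 and 5 groups at LL36 and 7 and 7 at LL24. Without a replicate of LL24 there were 193 to 252, 123 to 190 and 0 to 3. Uridine at the sites was 70.3% in CA1 and 67.4% in CA2 weighted by crosslinks, and 62.2% in CA2 if all 5 libraries were required. In all, 263 values stayed on their side of the threshold or within the spread, 49 lost significance and 38 moved. The cause of these changes was not tested, apart from fewer libraries raising the smallest p. Depth limits the control libraries most, where 3 counts are 0.190% to 0.248% of the pooled GFP-only and LL36 R49Q crosslinks.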
